A study of Mus musculus with 55 samples.

Results

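The genes described here are 10 members of the LIF and Wnt signalling pathways of mouse embryonic stem (ES) cells, chosen by gene symbol: the LIF receptor subunits Lifr and Il6st, the kinase Jak1, the transcription factor Stat3 and its feedback inhibitor Socs3, and, for Wnt, β-catenin (Ctnnb1), the scaffold and feedback inhibitor Axin2, the DNA-binding factors Tcf7l1 and Lef1, and the target gene Sp5. All 10 of 10 were listed in both pre-mRNA tables, among 9911 genes for CCNA-GFP cells and 10237 genes for CTCF-AID cells. LIF holds mouse ES cells in self-renewal. It joins Lifr to Il6st (gp130), the kinase Jak1 bound to these receptors phosphorylates Stat3, and Stat3 enters the nucleus and switches on genes that include Socs3, whose product then blocks the receptor and the kinase. In the Wnt pathway Axin2 and its relative Axin1 hold β-catenin in a complex that marks it for destruction. Wnt ligands stop that complex, β-catenin accumulates, and it relieves repression by Tcf7l1 and works with Lef1 on target genes, of which Axin2 and Sp5 are widely used readouts.

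CCNA-GFP cells are E14Tg2a ES cells with a cyclin A-GFP cell cycle reporter. CTCF-AID cells, also E14Tg2a, carry CTCF fused to an auxin-inducible degron and are a single clone, so a difference between the lines cannot be told apart from one between clones. Both were grown in serum and LIF, arrested with RO-3306 (a CDK1 inhibitor, 10 µM for 4 h) and then nocodazole (50 ng/ml for 4 h), collected by shake-off and released. The CCNA-GFP series had 19 libraries, from asynchronous cells, mitotic cells and cells released for 20, 30 or 40 min, for 50 or 60 min, and for 90 or 120 min. The CTCF-AID series had 18 libraries without (−IAA) and 18 with (+IAA) the auxin indole-3-acetic acid at 0.5 mM, which removes the CTCF protein, in asynchronous cells treated for 4 h, in mitotic cells treated for 2 h before release, and at 20, 40, 50, 60, 90 and 120 min with IAA kept on. Ctcf pre-mRNA was 5.74, 6.15 and 6.78 TPM in mitotic −IAA cells and 6.41, 6.10 and 7.18 TPM in mitotic +IAA cells. In asynchronous cells it was 6.54, 6.10 and 9.13 TPM without and 7.52, 7.77 and 10.9 TPM with IAA. It was higher with IAA in every same-numbered pair of asynchronous cells and from 40 to 120 min. These levels say nothing of the depletion, since IAA acts on the protein.

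Values are TPM of the unspliced isoform, the length-corrected share of a transcript in its library, a per-length scale on which genes can be compared within a library. Series of values below follow the replicate numbers 1, 2 and 3 for mitotic and asynchronous cells, 1 and 2 at 20, 40, 60 and 120 min, and 1 and 3 at 30, 50 and 90 min. The CCNA-GFP library at 50 min is replicate 3 alone and has no test. Stages were compared with limma on log2(TPM + 1), blocked by replicate number and adjusted over all genes, so a log2 change understates that of a gene with little pre-mRNA. The sum of listed TPM ran from 13747 to 42576 in CCNA-GFP, from 18396 to 43370 in −IAA and from 17702 to 43058 in +IAA libraries, so most genes move with the stage and the changes at 60 min are also given relative to the median of all genes. The low values of each library move in whole steps of 0.0184 to 0.0381 TPM, so the libraries carry factors of 1.84 to 3.81 on values rounded at 2 decimals. The factor was 2.81 to 3.48 in mitotic, 3.54 to 3.81 in 60 min and 2.30 to 2.91 in asynchronous CCNA-GFP libraries, and removing it left a median of 0.66, 0.64 and 0.59 at 60 min. At 60 min the median with the values as deposited was 0.79, 0.63 and 0.63 on the log2 scale in the 3 series, and scaling every library to the same total moved it to 0.02, 0.06 and 0.06. Of 8 ES cell markers 7 were listed, all but Sox2, with sums of 26.2 to 113 TPM in CCNA-GFP and 36.6 to 127 TPM in CTCF-AID. None of the 5 primitive endoderm markers was listed. As Sox2 is missing too, absence from the lists does not by itself show a low level. In such bulk samples fewer cells of a type and less RNA per cell cannot be told apart.

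The first calls after release came at 40 min, for Jak1 and Axin2 in all 3 series and for Sp5 in −IAA and +IAA. Sp5 was also called then in CCNA-GFP, where it is listed only through stages after release. Its calls above mitosis in CCNA-GFP, and the counts that hold them, were thus favoured in advance. Most members were called at 60 min. At 20 min none of the 10 genes was called higher than in mitosis in any of the 3 series, where 0% of all genes were called in CCNA-GFP, 0% in −IAA and 0% in +IAA. At 30 min, measured in CCNA-GFP alone, 0 of 10 were called against 0.303% of all genes. At 40 min 3 of 10 (Jak1, Axin2, Sp5) were called higher in CCNA-GFP against 49.3% of all genes, 4 of 10 in −IAA (the same 3 and Ctnnb1) against 63.3%, and 3 of 10 in +IAA (Jak1, Axin2, Sp5) against 58.7%. Without the library factor 7 of 10 passed at 40 min in CCNA-GFP, a setting for which no share of all genes is given. At 50 min 6 of 10 were called higher in −IAA and 6 of 10 in +IAA, against 79.1% and 78.2% of all genes.

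At 60 min all 10 genes had risen in CCNA-GFP (9 without the library factor, where Tcf7l1 missed the threshold), as had 88.3% of all genes, and 8 of 10 in −IAA (84.8% of all genes) and in +IAA (82.2%). The shares of all genes given here are from the main fit. Numbers of members under other settings have no such share beside them and cannot be set against these. With every library scaled to the same total, which also brought the median of all genes near 0, 3 of 10 were higher in CCNA-GFP (Jak1, Axin2 and Sp5), 2 in −IAA (Jak1 and Axin2) and 1 in +IAA (Jak1). The Sp5 call in CCNA-GFP, which the other series lack here, is the one favoured in advance. Ctnnb1 and Tcf7l1 were lower in all 3 series with this scaling. At 90 min 10, 6 and 4 of 10 were above mitosis in CCNA-GFP, −IAA and +IAA, against 89.1%, 74.8% and 73.8% of all genes. At 120 min the numbers were 8, 2 and 3 of 10, against 90.2%, 69.6% and 68.2%. With equal library totals these numbers were 2, 1 and 1 at 90 min and 1, 0 and 1 at 120 min, and the +IAA number at 120 min was 6, 0 and 1 without replicates 1, 2 and 3. In asynchronous cells 6, 3 and 4 of 10 were above mitosis, against 70.4%, 34.3% and 40.9%, and Ctnnb1 was below mitosis in −IAA and +IAA, as were 5.25% and 5.89% of all genes. Without the library factor 5 of 10 were above mitosis in asynchronous −IAA cells, and without replicate 3 the number there was 0. The groups at 120 min rest on replicates 1 and 2, which moved apart for Stat3 and Socs3, as their values by replicate show. Those at 90 min rest on replicates 1 and 3, and without replicate 3, which leaves 1 library there, the −IAA and +IAA numbers were lower.

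**Figure D1:**
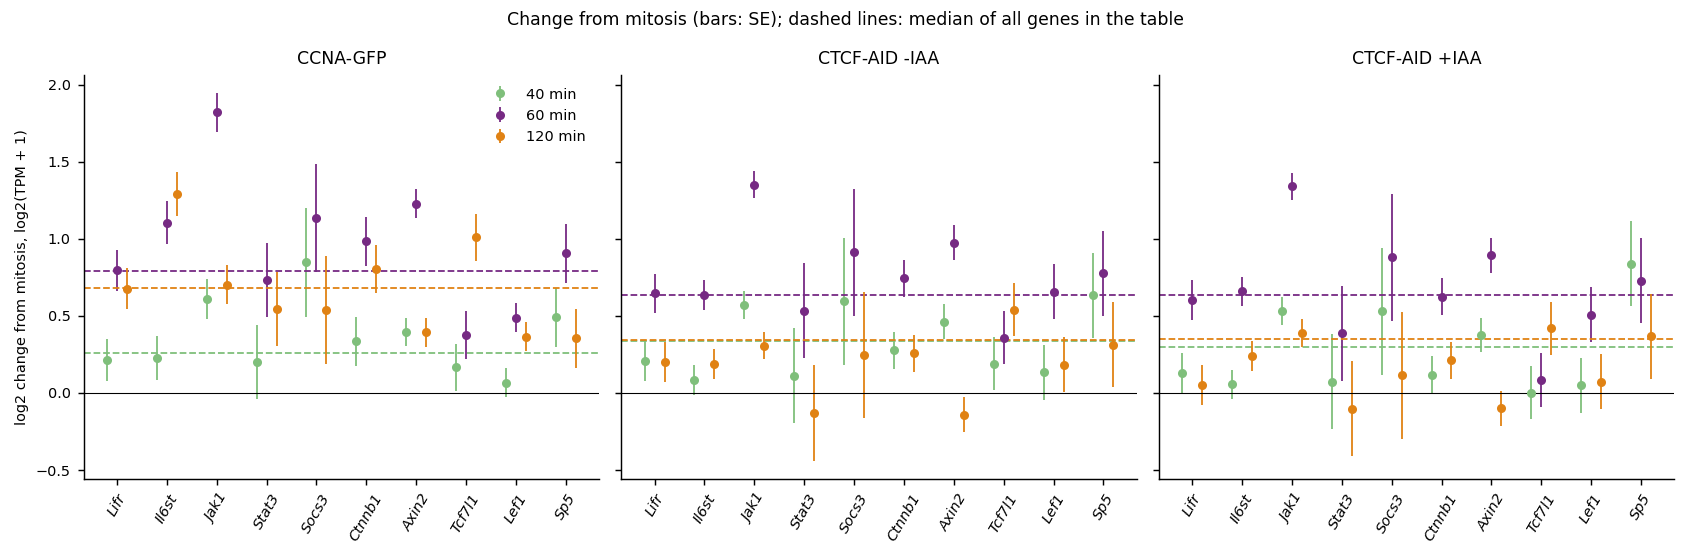
Log2 change of each gene from mitosis on the log2(TPM + 1) scale at 40, 60 and 120 min after release (points, with SE bars from limma) in CCNA-GFP, CTCF-AID −IAA and CTCF-AID +IAA cells. Dashed lines give the median of all genes at the same time. Jak1 and Axin2 lie above the 60 min line in every panel and Tcf7l1 lies below it.

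Jak1, the kinase that carries the LIF signal from gp130 to Stat3, had the largest change of the set at 60 min on the log2(TPM + 1) scale. Its level in CCNA-GFP was 0.453, 0.498 and 0.534 TPM in mitosis, 0.594 and 0.499 at 20 min, 0.827 and 0.666 at 30 min, 1.23 and 1.18 at 40 min, 2.06 at 50 min, 4.91 and 3.39 at 60 min, 1.69 and 2.71 at 90 min, 1.17 and 1.53 at 120 min and 0.580, 0.714 and 0.901 in asynchronous cells. Every library from 40 to 120 min lay above every mitotic and asynchronous one, and both libraries at 60 min lay above all others. The log2 change at 60 min was 1.82 ± 0.13 (SE, adjusted p = 2.16e-10), which is 1.03 above the median of all genes and stays 1.07 with equal library totals (adjusted p = 1.11e-06). In −IAA cells Jak1 went from 0.413, 0.537 and 0.621 TPM in mitosis through 1.13 and 1.30 at 40 min to 2.34 and 3.34 at 60 min, and was 0.776 and 0.922 at 120 min and 0.521, 0.652 and 0.660 in asynchronous cells. The +IAA series ran from 0.447, 0.515 and 0.541 TPM in mitosis to 2.43 and 3.05 at 60 min, 0.713 and 1.17 at 120 min and 0.767, 0.887 and 0.830 in asynchronous cells. From 60 to 120 min Jak1 fell in all 3 series, by 1.12, 1.04 and 0.95 on the log2 scale (adjusted p = 7.20e-06, 2.70e-08 and 5.28e-08). Its gene spans 113 kb (chr4:101152367-101265282, mm10), among the longer ones of the set. Raver2 overlaps it on the opposite strand, and the libraries were stranded.

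**Figure D2:**
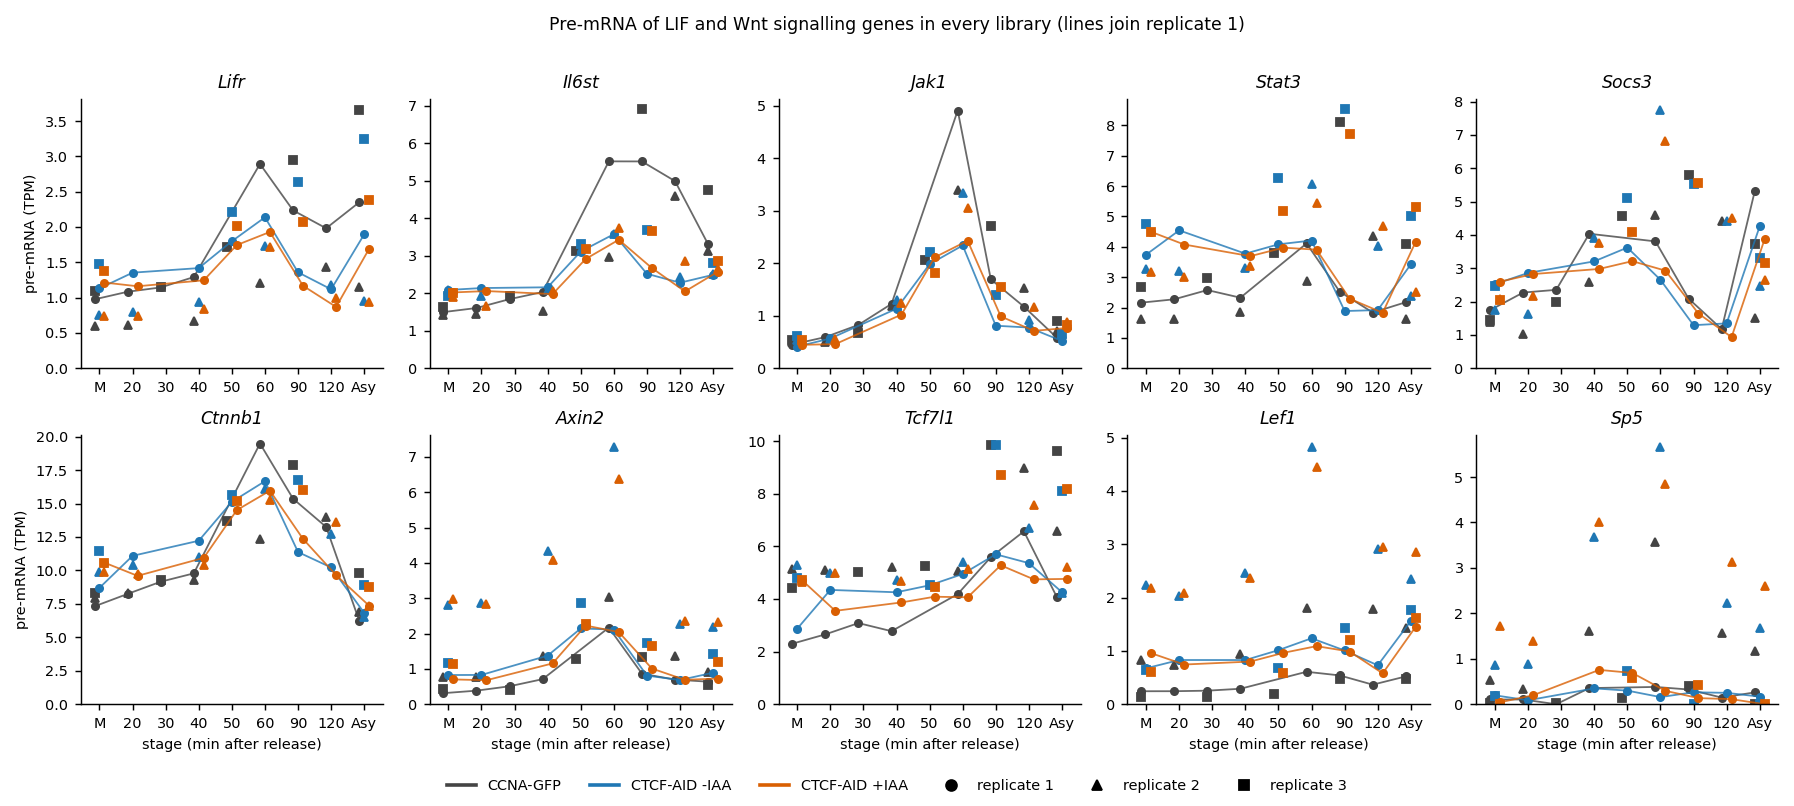
Pre-mRNA level (TPM) of the 10 genes in each library by stage (M, mitotic; Asy, asynchronous; numbers, min after release). Colours mark the CCNA-GFP, CTCF-AID −IAA and CTCF-AID +IAA series, symbols the replicate number, and lines join replicate 1. Jak1 reaches 4.91 TPM at 60 min in CCNA-GFP replicate 1, and within each series the triangles of replicate 2 stand above the other symbols of their stage for Axin2, Lef1 and Sp5.

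Both receptor subunits rose at 60 min in each series with the values as deposited, and neither passed in any series with equal library totals. Il6st, the signal-transducing subunit gp130, was 1.50, 1.43 and 1.63 TPM in mitotic CCNA-GFP cells, 5.52 and 2.97 at 60 min, 5.52 and 6.91 at 90 min, 4.99 and 4.60 at 120 min and 3.31, 3.13 and 4.77 in asynchronous cells. Both libraries at 120 min still lay above all 3 mitotic ones, and the change from mitosis was 1.10 ± 0.14 at 60 min and 1.29 ± 0.14 at 120 min (adjusted p = 3.23e-07 and 1.09e-07). The step from 60 to 120 min was 0.19 ± 0.15 and did not pass the test (adjusted p = 0.339). In −IAA cells Il6st was 2.09, 2.07 and 1.92 TPM in mitosis, 3.58 and 3.58 at 60 min and 2.28 and 2.43 at 120 min, while +IAA cells had 2.02, 1.91 and 2.00, 3.43 and 3.74 and 2.05 and 2.86 TPM. In the CTCF-AID line it rose by 0.64 and 0.66 at 60 min and fell by 0.45 and 0.42 by 120 min (adjusted p = 7.66e-04 in −IAA and 0.00140 in +IAA). The rise at 60 min was 0.31, 0.00 and 0.03 above the median of all genes in CCNA-GFP, −IAA and +IAA, and with equal library totals it was 0.13, −0.09 and −0.07. With equal library totals the Il6st step from 60 to 120 min was 0.33 in CCNA-GFP and passed (adjusted p = 0.00693), while the falls in −IAA and +IAA became −0.14 and −0.12 and did not (adjusted p = 0.0722 and 0.120). The lines were quantified in separate tables and this difference between them was not tested.

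Lifr, the subunit that binds LIF itself, was 0.976, 0.598 and 1.10 TPM in mitotic CCNA-GFP cells, 2.89 and 1.20 at 60 min, 1.98 and 1.44 at 120 min and 2.35, 1.15 and 3.66 in asynchronous cells. Replicate 2 was the lowest of each of these groups, and its value at 60 min (1.20 TPM) was near mitotic values of the other replicates. Within replicates the change at 60 min was 0.80 ± 0.13 (adjusted p = 1.27e-05), which is 0.00 from the median of all genes. In −IAA cells the levels were 1.13, 0.757 and 1.48 TPM in mitosis, 2.14 and 1.73 at 60 min, 1.12 and 1.17 at 120 min and 1.90, 0.956 and 3.25 in asynchronous cells. The same stages of +IAA cells gave 1.21, 0.735 and 1.37, 1.93 and 1.72, 0.869 and 0.994 and 1.69, 0.944 and 2.38 TPM. Lifr rose at 60 min in both arms (0.65 ± 0.13 and 0.60 ± 0.13, 0.01 and −0.03 from the median of all genes), fell again by 120 min (−0.45 and −0.55, adjusted p = 0.00838 and 0.00180), and was higher in asynchronous than in mitotic cells in all 3 series. Without replicate 1 the falls of Lifr by 120 min did not pass (adjusted p = 0.274 and 0.156), with equal library totals the −IAA fall was −0.19 and did not pass (adjusted p = 0.124), and its excess in asynchronous −IAA and +IAA cells did not pass without replicate 1 (adjusted p = 0.0676 and 0.132) or without replicate 3 (adjusted p = 0.0979 and 0.180).

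Stat3, the factor that Jak1 activates, and Socs3, its target and the inhibitor of the same receptor, were both above mitosis at 60 min in CCNA-GFP and at 120 min stood on opposite sides of mitosis in replicates 1 and 2. Stat3 in CCNA-GFP was 2.16, 1.63 and 2.67 TPM in mitosis, 4.11 and 2.86 at 60 min, 2.52 and 8.12 at 90 min, 1.83 and 4.35 at 120 min and 2.18, 1.64 and 4.10 in asynchronous cells. At 90 min replicate 3 was at 8.12 TPM and replicate 1 at 2.52, and at 120 min replicate 2 stood above every mitotic library while replicate 1 was below its own mitotic value. The split recurred without IAA, where Stat3 was 3.74, 3.27 and 4.74 TPM in mitosis, 4.21 and 6.06 at 60 min, 1.88 and 8.53 at 90 min and 1.92 and 4.02 at 120 min. It was present with IAA as well, with 4.49, 3.16 and 4.48 TPM in mitosis, 3.90 and 5.44 at 60 min, 2.29 and 7.70 at 90 min and 1.83 and 4.67 at 120 min. Replicate 1 thus ended below mitosis and replicate 2 above it in each series. Same-numbered −IAA and +IAA libraries deviated together from their stage means (mean r of 0.80 at 120 min), so the arms are not independent observations of this split. The fitted Stat3 change at 60 min was 0.73 ± 0.24 in CCNA-GFP (adjusted p = 0.00744), but 0.53 ± 0.31 and 0.39 ± 0.31 in −IAA and +IAA, which did not pass (adjusted p = 0.108 and 0.240). These changes were −0.06, −0.10 and −0.25 from the median of all genes, and the CCNA-GFP value turned to −0.27 with equal library totals and did not pass without the replicate block (adjusted p = 0.179). Without replicate 1 the Stat3 values in −IAA and +IAA were 0.83 and 0.74 and passed (adjusted p = 0.00378 and 0.00601).

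Socs3 pre-mRNA in CCNA-GFP was 1.74, 1.40 and 1.46 TPM in mitosis, 2.27 and 1.02 at 20 min, 2.35 and 2.00 at 30 min, 4.03 and 2.59 at 40 min, 3.81 and 4.60 at 60 min, 2.09 and 5.79 at 90 min, 1.17 and 4.41 at 120 min and 5.31, 1.50 and 3.72 in asynchronous cells. Both libraries at 40 and at 60 min were above the 3 mitotic ones, with a change of 1.13 ± 0.35 at 60 min (adjusted p = 0.00522). By 120 min replicate 1 had come down below mitosis and replicate 2 was almost where it had been at 60 min. In −IAA cells Socs3 was 2.52, 1.76 and 2.46 TPM in mitosis, 2.65 and 7.74 at 60 min, 1.29 and 5.53 at 90 min and 1.35 and 4.42 at 120 min. In +IAA cells it was 2.60, 2.08 and 2.05, 2.93 and 6.82, 1.64 and 5.54 and 0.936 and 4.50 TPM at those stages. At 120 min the replicate 2 library held 3.28 to 4.81 times the Socs3 level of replicate 1 over the 3 series, and 2.10 to 2.56 times the Stat3 level. Socs3 passed at 60 min in −IAA (0.91 ± 0.41, adjusted p = 0.0419) and narrowly in +IAA (0.88 ± 0.41, adjusted p = 0.0496), where the adjusted p without the library factor was 0.053. In the 3 series Socs3 was 0.34, 0.28 and 0.25 above the median of all genes at 60 min, and it passed in none with equal library totals. The −IAA and +IAA calls were lost with a pseudocount of 0.1 (adjusted p = 0.0575 and 0.0644) and without the replicate block (adjusted p = 0.104 and 0.119). With no trend the +IAA call was lost as well (adjusted p = 0.0538). Without replicate 2 the Socs3 values at 60 min were 0.24 in −IAA and 0.42 in +IAA and passed in neither (adjusted p = 0.642 and 0.418), and without replicate 3 they missed the threshold as well (adjusted p = 0.0909 and 0.146).

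Among the 9574 genes in both tables, 0.303% were below mitosis at 120 min in replicate 1 and above it in replicate 2 in all 3 series, and 2 of the 10 genes, Stat3 and Socs3, were among them. This pattern was looked for after the values had been seen, so it is a description without a test. Replicate 1 of each series covers almost every stage, replicate 2 has no library at 90 min and replicate 3 none at 60 or 120 min, so a mean per stage mixes replicates. Across libraries Stat3 and Socs3 correlated at r = 0.71 in the 19 CCNA-GFP and 0.79 in the 36 CTCF-AID libraries, which share stages and replicates.

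**Figure D3:**
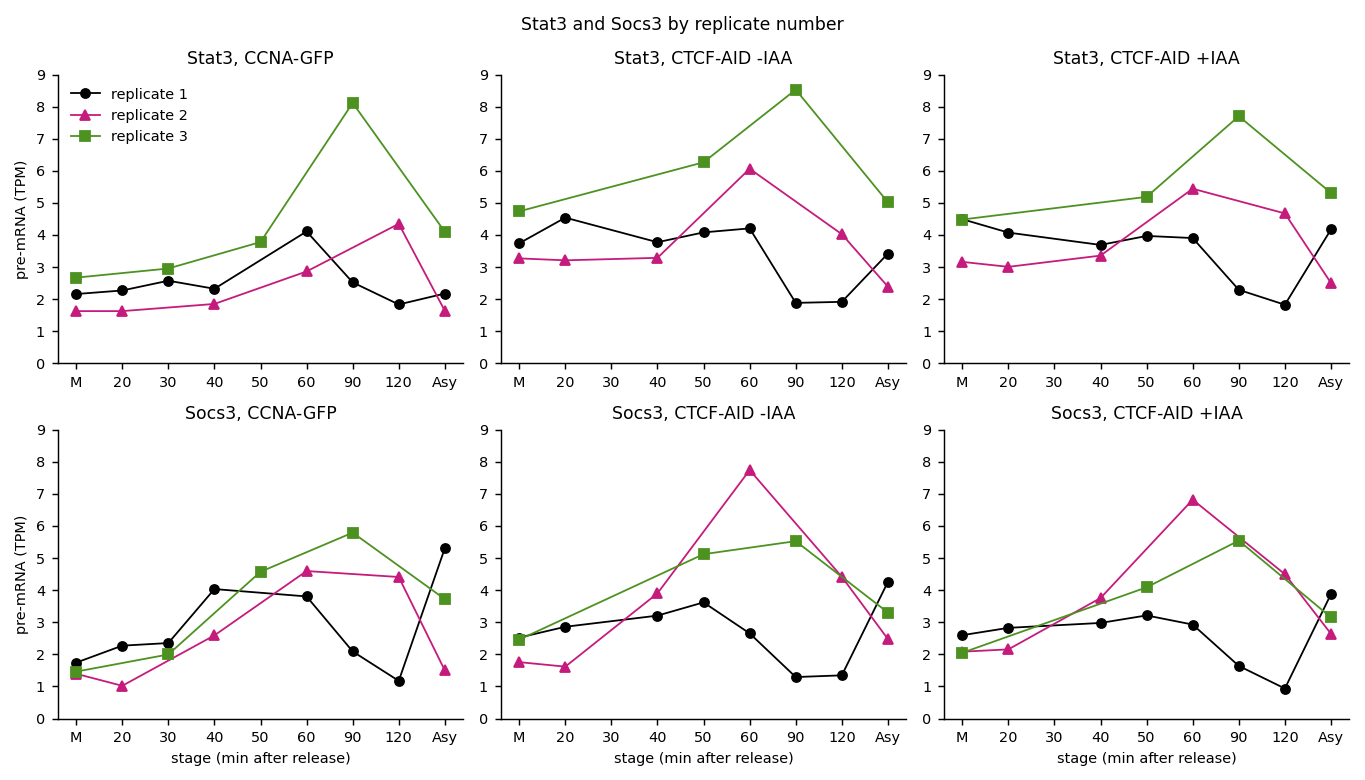
Stat3 (top) and Socs3 (bottom) pre-mRNA in TPM by stage, with a line for each replicate number, in the 3 series. In every panel replicate 1 lies below replicate 3 at 90 min and below replicate 2 at 120 min, from 0.936 against 4.50 TPM for Socs3 in +IAA to 1.92 against 4.02 TPM for Stat3 in −IAA.

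Ctnnb1, which encodes β-catenin, had the highest level of the set in every series in mitosis, at 60 min and in asynchronous cells. In CCNA-GFP it was 7.32, 7.94 and 8.32 TPM in mitosis, 19.5 and 12.3 at 60 min, 15.4 and 17.9 at 90 min, 13.2 and 13.98 at 120 min and 6.24, 6.87 and 9.82 in asynchronous cells. All libraries from 60 to 120 min were above all mitotic and asynchronous ones. Its rise at 60 min was 0.98 ± 0.16 in CCNA-GFP (adjusted p = 6.90e-06), 0.74 ± 0.12 in −IAA and 0.62 ± 0.12 in +IAA, 0.19, 0.11 and −0.01 from the median of all genes. With equal library totals the direction turned, to −0.27, −0.17 and −0.30 in these series. In the CTCF-AID line asynchronous cells held less Ctnnb1 than mitotic cells. The −IAA values were 8.70, 9.91 and 11.4 TPM in mitosis and 6.82, 6.52 and 8.94 TPM in asynchronous cells, and the +IAA values 10.6, 9.90 and 10.6 and 7.36, 7.34 and 8.74 TPM, with no overlap in +IAA and with an overlap of 1 library in −IAA. The difference was −0.39 ± 0.11 and −0.37 ± 0.11 (adjusted p = 0.00548 and 0.00663). Without the library factor these differences were −0.13 and −0.15 and did not pass (adjusted p = 0.273 and 0.232). Without replicate 2 the −IAA difference was −0.32 and did not pass (adjusted p = 0.0609). In CCNA-GFP the difference was −0.06 ± 0.14 and did not pass (adjusted p = 0.715), while with equal library totals it was −0.61 and passed (adjusted p = 9.55e-05).

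Axin2, the scaffold of the destruction complex that Wnt signalling itself induces, rose early and briefly. In CCNA-GFP its level was 0.314, 0.764 and 0.422 TPM in mitosis, 0.710 and 1.37 at 40 min, 2.17 and 3.04 at 60 min, 0.865 and 1.34 at 90 min, 0.697 and 1.38 at 120 min and 0.638, 0.899 and 0.552 in asynchronous cells. In −IAA cells it was 0.826, 2.81 and 1.16 TPM in mitosis, 1.37 and 4.34 at 40 min, 2.11 and 7.28 at 60 min, 0.684 and 2.26 at 120 min and 0.892, 2.19 and 1.42 in asynchronous cells. The +IAA values at these stages were 0.703, 2.99 and 1.13, 1.16 and 4.09, 2.04 and 6.38, 0.691 and 2.36 and 0.728, 2.33 and 1.20 TPM. Replicate 2 was the highest of every group it belongs to, and within each replicate the 60 min library was above the mitotic one. The change at 60 min was 1.23 ± 0.09, 0.97 ± 0.11 and 0.89 ± 0.11 in CCNA-GFP, −IAA and +IAA (adjusted p = 4.61e-10, 2.99e-08 and 1.10e-07), 0.44, 0.34 and 0.26 above the median of all genes. With equal library totals the +IAA value was 0.21 and did not pass (adjusted p = 0.140). Without the replicate block the −IAA and +IAA values were 1.04 and 0.96 and did not pass (adjusted p = 0.0714 and 0.0967). From 60 to 120 min it fell by 0.83, 1.11 and 0.99 (adjusted p = 6.71e-06, 2.23e-07 and 6.48e-07), beyond the median of all genes of −0.11, −0.27 and −0.25. Without the block the falls in −IAA and +IAA did not pass (adjusted p = 0.124 and 0.177).

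Tcf7l1, the factor that represses pluripotency genes when β-catenin is low, changed by 0.38 ± 0.15 at 60 min in CCNA-GFP (adjusted p = 0.0265), 0.42 under the median of all genes. Its level in CCNA-GFP was 2.30, 5.15 and 4.41 TPM in mitosis, 2.78 and 5.23 at 40 min, 4.19 and 5.06 at 60 min, 5.59 and 9.86 at 90 min, 6.57 and 8.98 at 120 min and 4.06, 6.57 and 9.62 in asynchronous cells. The change from mitosis at 60 min in CCNA-GFP did not pass without replicate 1 (0.15, adjusted p = 0.532), without replicate 3 (0.32, adjusted p = 0.0796) or without the replicate block (0.23, adjusted p = 0.552). In both replicates 120 min was above 60 min, and the step of 0.63 ± 0.16 passed the test (adjusted p = 0.00509), as did an increase in 9.6% of all genes. With IAA absent Tcf7l1 was 4.95 and 5.41 TPM at 60 min, 5.70 and 9.84 at 90 min and 5.36 and 6.71 at 120 min, and with IAA 4.06 and 5.12, 5.28 and 8.70 and 4.74 and 7.58 TPM. The step from 60 to 120 min was 0.18 ± 0.19 and 0.33 ± 0.19 there and missed the threshold (adjusted p = 0.411 and 0.128). It passed with equal library totals, where the step was 0.51 and 0.65 (adjusted p = 0.0125 and 0.00218). Tcf7l1 is the longest gene of the set, 163 kb at chr6:72626378-72789254.

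Lef1, a factor that activates Wnt targets together with β-catenin, was low and uneven between replicates. In CCNA-GFP it was 0.244, 0.830 and 0.141 TPM in mitosis, 0.609 and 1.80 at 60 min, 0.367 and 1.78 at 120 min and 0.522, 1.43 and 0.465 in asynchronous cells. In −IAA cells the values were 0.674, 2.25 and 0.647, 1.24 and 4.82, 0.730 and 2.91 and 1.56, 2.35 and 1.77 TPM, and in +IAA cells 0.958, 2.18 and 0.608, 1.09 and 4.46, 0.579 and 2.96 and 1.46, 2.85 and 1.62 TPM. Replicate 2 was again the highest of every group. Within replicates Lef1 rose at 60 min by 0.49, 0.66 and 0.51 (adjusted p = 6.22e-05, 0.00156 and 0.0113), which is −0.30, 0.02 and −0.13 from the median of all genes, and asynchronous cells were above mitotic ones by 0.35, 0.47 and 0.44. Without replicate 2 the Lef1 value at 60 min in +IAA was 0.22 and did not pass (adjusted p = 0.227), with replicate 1 at 0.958 TPM in mitosis and 1.09 TPM at 60 min. With equal library totals the value at 60 min was −0.03 in CCNA-GFP, 0.05 in −IAA and −0.11 in +IAA, while the excess of asynchronous over mitotic cells still passed in all 3 series. Without replicate 1 or without replicate 3 that excess of Lef1 missed the threshold in −IAA (adjusted p = 0.131 and 0.241) and in +IAA (adjusted p = 0.0674 and 0.248).

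Sp5, a transcription factor gene that β-catenin and TCF/LEF factors switch on directly, was seen above 1 TPM in replicate 2 alone. In CCNA-GFP it was 0.105, 0.531 and 0.0281 TPM in mitosis, 0.355 and 1.62 at 40 min, 0.381 and 3.57 at 60 min, 0.324 and 0.410 at 90 min, 0.147 and 1.56 at 120 min and 0.261, 1.18 and 0 in asynchronous cells. In −IAA cells it was 0.196, 0.854 and 0.181, 0.349 and 3.68, 0.157 and 5.65, 0.263 and 0, 0.251 and 2.24 and 0.167, 1.67 and 0 TPM at those stages, and in +IAA cells 0.0426, 1.72 and 0, 0.756 and 4.02, 0.295 and 4.85, 0.135 and 0.418, 0.111 and 3.13 and 0, 2.60 and 0 TPM. Sp5 was listed at 0 in 7 of 55 libraries, none of them of replicate 2, and values under about 0.1 TPM are within a few steps of 0. Sp5 passed at 60 min in all 3 series, by 0.91 ± 0.19, 0.78 ± 0.28 and 0.73 ± 0.28 (adjusted p = 1.68e-04, 0.0116 and 0.0174), 0.11, 0.14 and 0.10 above the median of all genes. In CCNA-GFP its asynchronous mean of 0.479 TPM is under the 0.5 TPM of the tables' filter, so Sp5 is listed there only through stages after release, where it is high, and a rise from mitosis was favoured in advance. In CCNA-GFP the change was 0.32 in replicate 1 and 1.58 in replicate 2, and in +IAA 0.31 and 1.11. With a pseudocount of 0.1 the −IAA value was 0.88 and did not pass (adjusted p = 0.174), and with equal library totals Sp5 passed in CCNA-GFP alone. The −IAA value rests on replicate 2, in which Sp5 went from 0.854 to 5.65 TPM, while replicate 1 went from 0.196 to 0.157 TPM. Without replicate 2 the Sp5 value at 60 min was −0.04 in −IAA and 0.34 in +IAA, where it did not pass (adjusted p = 0.0827), and without replicate 3 the +IAA value was 0.71 and missed the threshold (adjusted p = 0.0557).

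The Sp5 and Socs3 promoters are shown because both genes answer directly to the end point of their pathway, and those of Jak1 and Axin2 because these genes had the largest changes at 60 min on the log2(TPM + 1) scale. All 10 genes matched RefSeq promoters of GRCm38.p6, with 15 start sites. Each sequence is the 250 bases before the start, 5′ to 3′ on the gene's strand, with matches to the searched motifs in capitals.
Sp5 (chr2:70474673-70474922, plus strand): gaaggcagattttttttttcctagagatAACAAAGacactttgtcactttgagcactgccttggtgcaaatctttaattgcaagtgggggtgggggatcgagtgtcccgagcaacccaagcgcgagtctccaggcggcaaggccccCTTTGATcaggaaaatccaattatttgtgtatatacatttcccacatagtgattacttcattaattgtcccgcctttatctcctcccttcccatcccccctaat
Socs3 (chr11:117969367-117969616, minus strand): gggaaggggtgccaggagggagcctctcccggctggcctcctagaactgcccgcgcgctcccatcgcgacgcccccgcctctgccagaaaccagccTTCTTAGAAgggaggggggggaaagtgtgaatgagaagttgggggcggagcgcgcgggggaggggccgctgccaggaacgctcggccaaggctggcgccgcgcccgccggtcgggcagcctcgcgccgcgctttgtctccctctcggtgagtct
Jak1 (chr4:101265224-101265473, minus strand): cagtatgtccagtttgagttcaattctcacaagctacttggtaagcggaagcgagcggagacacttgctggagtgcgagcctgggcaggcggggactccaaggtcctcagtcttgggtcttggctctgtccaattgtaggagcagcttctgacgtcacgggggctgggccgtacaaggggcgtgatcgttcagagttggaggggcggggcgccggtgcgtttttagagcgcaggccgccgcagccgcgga
Axin2 (chr11:108920099-108920348, plus strand): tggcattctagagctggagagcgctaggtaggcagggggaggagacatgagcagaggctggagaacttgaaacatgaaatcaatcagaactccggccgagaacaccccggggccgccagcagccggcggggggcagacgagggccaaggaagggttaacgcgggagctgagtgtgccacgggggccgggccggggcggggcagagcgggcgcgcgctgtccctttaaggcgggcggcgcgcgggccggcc
Both strands were searched for the STAT site TTCNNNGAA, the TCF/LEF site (spelled CTTTGAA with its variant CTTTGAT, and also CTTTGTA with its variant CTTTGTT), the letters AGGGGGCGC or AGGTGGCAG from the core of the CTCF motif, and TATAAA. Of all 32851 promoters 7.02% hold the STAT letters, 14.8% the TCF/LEF letters, 1.74% the CTCF letters and 12.4% TATAAA. Socs3 holds 1 STAT match, 154 to 146 bases before the start. Sp5 holds 2 TCF/LEF matches, at 222 to 216 and 104 to 98 bases before the start. A TCF/LEF match also lies before 1 of 4 Lef1 start sites and TATAAA before 1 of 2 Ctnnb1 start sites and before 1 Lef1 start site, and the letters searched for CTCF are not in these windows of the 10 genes. These are matches of letters and not sites shown to be bound.

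Axin2, Lef1 and Sp5 differed between replicate numbers in both lines, and they were singled out after their values had been seen. Replicate 2 was the highest library in 18 of 18 groups that include it for Axin2, Lef1 and Sp5, a pattern found in 1.47% of the 9574 genes in both tables. These groups are stages of the same experiments, and same-numbered libraries of the IAA arms deviated together. They are thus not 18 independent observations. The replicate terms of the limma fits, tested after these values had been seen, passed for most genes (63.2% in CCNA-GFP and 86.4% in CTCF-AID), so passing is no result by itself and the sizes are given. Replicate 2 exceeded replicate 1 by 0.91 ± 0.11 for Sp5, 0.68 ± 0.06 for Lef1 and 0.39 ± 0.06 for Axin2 on the log2 scale in CCNA-GFP, against a median of −0.11 over all genes. In CTCF-AID the excess was 1.51 ± 0.12, 0.93 ± 0.08 and 1.10 ± 0.05, against a median of −0.07 over all genes. Lifr went the other way, −0.49 ± 0.08 in CCNA-GFP and −0.26 ± 0.06 in CTCF-AID. Jak1 differed by −0.02 ± 0.08 and 0.16 ± 0.04. Tcf7l1 was higher in replicate 2 than in replicate 1 by 0.58 ± 0.09 in CCNA-GFP and 0.23 ± 0.07 in CTCF-AID. Stat3 was higher in replicate 3 than in replicate 1, by 0.64 ± 0.17 and 0.69 ± 0.16.

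Some markers of other cell types moved with these genes. T (Brachyury), a mesoderm gene that Wnt also induces, was 0.174, 1.59 and 0.0581 TPM in asynchronous CCNA-GFP cells, 0.0372, 3.48 and 0.0755 in −IAA and 0.0590, 5.18 and 0.0738 in +IAA cells, with replicate 2 highest in 18 of 18 groups. Zfp42 (Rex1), a marker of naive ES cells, was 30.3, 20.9 and 48.1, 52.5, 28.5 and 70.8 and 47.4, 26.9 and 60.4 TPM in the same libraries, with replicate 2 lowest in 18 of 18 groups. The share of all genes with replicate 2 lowest is not given, and the median gene was also lower there. Replicate 2 differed from replicate 1 by −0.46 ± 0.09 for Zfp42 in CCNA-GFP (median of all genes −0.11). In CTCF-AID the difference was −0.71 ± 0.07 (median −0.07). Over mitotic and asynchronous libraries the 3 listed mesoderm markers of 5 summed to 1.88 to 5.84 TPM in CTCF-AID replicate 2, and to 0.413 to 0.490 in replicate 1 and 0.360 to 0.682 in replicate 3. In CCNA-GFP these sums were 1.43 to 2.42, 0.609 to 1.01 and 0.436 to 0.900 TPM. Without T, the other 2, Eomes and Tbx6, differed far less between replicates and summed to 0.613 to 0.655 TPM in CTCF-AID replicate 2, 0.370 to 0.447 in replicate 1 and 0.315 to 0.608 in replicate 3, and to 0.829 to 0.830, 0.435 to 0.767 and 0.378 to 0.843 TPM in CCNA-GFP, where replicates 2 and 3 overlapped. The 2 listed ectoderm markers of 5, Pax6 and Nes, summed to 1.83 to 3.43 TPM in CTCF-AID replicate 2, 0.826 to 1.22 in replicate 1 and 1.24 to 1.53 in replicate 3, and in CCNA-GFP to 1.83 to 3.64, 0.592 to 0.667 and 0.619 to 1.05 TPM. Over all stages Nes alone had medians of 3.82, 1.98 and 2.58 TPM in CTCF-AID replicates 2, 1 and 3. In CCNA-GFP its medians were 2.94, 0.979 and 0.772 TPM. These sums can thus follow Nes alone. The 7 listed ES cell markers summed to 37.0 to 57.2 TPM in CTCF-AID replicate 2, against 70.2 to 99.7 and 70.4 to 127 in replicates 1 and 3. In CCNA-GFP these sums overlapped, at 26.2 to 54.0 TPM in replicate 2, 36.1 to 76.0 in replicate 1 and 42.3 to 113 in replicate 3. Zfp42, with the values above, is a large part of the ES cell sums, and sums without it are not given. The fibroblast feeder cell markers Col1a1 and Thy1, listed in CTCF-AID alone, summed to 0.146 to 0.366 TPM in replicate 2, 0.435 to 0.807 in replicate 1 and 0.362 to 1.17 in replicate 3. The mesoderm markers Mixl1 and Mesp1 were not listed in either table. The part of cell state in the level of Sp5, Lef1, Axin2 and Lifr was not tested.

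**Figure D4:**
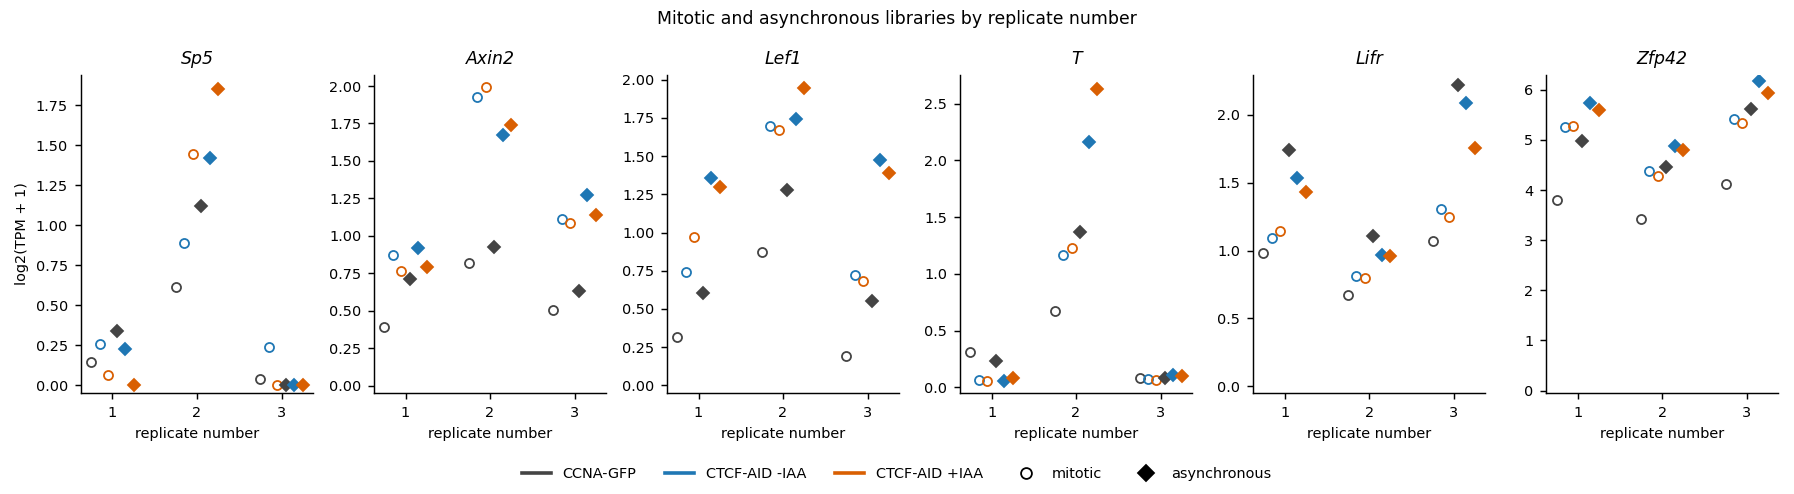
Levels on the log2(TPM + 1) scale of Sp5, Axin2, Lef1, T, Lifr and Zfp42 in mitotic (open circles) and asynchronous (filled diamonds) libraries by replicate number, with colours for the 3 series. Replicate 2 is highest in every group for the first panels, Sp5 to T, and lowest for Lifr and Zfp42. T in asynchronous +IAA cells is 5.18 TPM in replicate 2 and 0.0590 and 0.0738 TPM in the others.

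In the main fit the share of members that fell from 60 to 120 min was near that of all genes. In CCNA-GFP 3 of 10 fell (Jak1, Axin2 and Sp5), against 28.5% of all genes. With only genes averaging 1 TPM or more, 1 of the 7 members tested fell. Without replicate 2, which leaves 1 library at each time, Stat3 was at −0.85 and Socs3 at −1.14. The fall of Sp5 did not pass with a pseudocount of 0.1 (adjusted p = 0.0834), with equal library totals (0.0825), with no trend (0.0785) or without the replicate block (0.453). In −IAA 6 of 10 fell (Jak1, Axin2, Ctnnb1, Il6st, Lef1 and Lifr) against 53.1%, and in +IAA 5 of 10 (the same without Lef1) against 50.8%. The fall of Lef1 in −IAA did not pass with a pseudocount of 0.1 (adjusted p = 0.0600), with equal library totals (0.2002), without the replicate block (0.494), without replicate 1 (0.106) or without replicate 2 (0.113). Those of Ctnnb1 did not pass without replicate 1 (adjusted p = 0.0928 in −IAA and 0.385 in +IAA) or with equal library totals, where they were −0.11 and −0.04 (adjusted p = 0.233 and 0.641). Compared with asynchronous cells, 5 of 10 genes were higher at 60 min in CCNA-GFP (67% of all genes), 5 in −IAA (75.2%) and 6 in +IAA (72.2%). Jak1, Axin2, Ctnnb1 and Sp5 were among them in all 3 series, with Jak1 at 1.61, 1.27 and 1.06 above asynchronous cells. For Sp5 in CCNA-GFP this call too was favoured by the filter. At mitosis in CCNA-GFP the order of mean levels ran from Ctnnb1 (7.86 TPM) through Tcf7l1 (3.95), Stat3 (2.15), Socs3 (1.53), Il6st (1.52), Lifr (0.890), Axin2 (0.500), Jak1 (0.495) and Lef1 (0.405) to Sp5 (0.221). Only the steps after Ctnnb1 and after Il6st were free of overlap between the libraries of neighbours. At 60 min Jak1 had moved to the fifth place with 4.15 TPM, and only Ctnnb1 (15.9 TPM) stood clear of its neighbour.

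CTCF depletion was compared within the CTCF-AID table, +IAA against −IAA, where a call needs an adjusted p under 0.1 and a log2 difference over 0.2 in size. At each of 8 stages 0 of 10 genes were called. The share of all genes called was 0% in mitosis, 0% after 20 min, 0% after 40 min, 0.283% after 50 min, 0.225% after 60 min, 0.733% after 90 min, 0.586% after 120 min and 1.01% in asynchronous cells. The study used a count test with a rule across stages, and it reported genes that responded early after release. The shares here come from another test and do not show that no gene responded at 20 or 40 min. The mean difference over the 6 stages after release was called in 1.72% of all genes and in none of the 10, and its interaction with asynchronous cells in 0.00977% and in none. At an unadjusted p of 0.05 limma also gave 0 of 10 in each of these comparisons. With the replicate block, which leaves smaller errors, Jak1 in asynchronous cells reached an unadjusted p of 0.0274 (adjusted p = 0.592), and its interaction an unadjusted p of 0.0415 (adjusted p = 1.00). The Jak1 values in asynchronous cells were 0.521, 0.652 and 0.660 TPM without and 0.767, 0.887 and 0.830 TPM with IAA, higher with IAA in 3 of 3 pairs.

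The mean differences after release ran from −0.10 for Lifr to 0.14 for Sp5, and the 95% interval was narrowest for Il6st (−0.13 to 0.09) and widest for Sp5 (−0.56 to 0.84). Lifr was lower with IAA in every same-numbered pair after release and in asynchronous cells, while mitotic pairs went both ways. These pairs are stages of the same experiments, and the share of all genes with such a pattern is not given. The median of all genes for the mean difference after release was −0.02. Lifr was not called with the replicate block either. With the replicate block the intervals were −0.09 to 0.08 for Jak1, −0.15 to 0.06 for Axin2, −0.22 to 0.02 for Lifr, −0.33 to 0.24 for Stat3 and −0.41 to 0.35 for Socs3. These intervals bound the difference at its present error and do not show that the arms were alike. At 60 min Jak1 was 2.34 and 3.34 TPM in −IAA and 2.43 and 3.05 in +IAA, Axin2 2.11 and 7.28 and 2.04 and 6.38, and Socs3 2.65 and 7.74 and 2.93 and 6.82. For these 3 genes the gap between replicates 1 and 2 was wider than the gap between the arms, which did not hold for every member, Il6st, Ctnnb1 and Tcf7l1 among the exceptions.

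**Figure D5:**
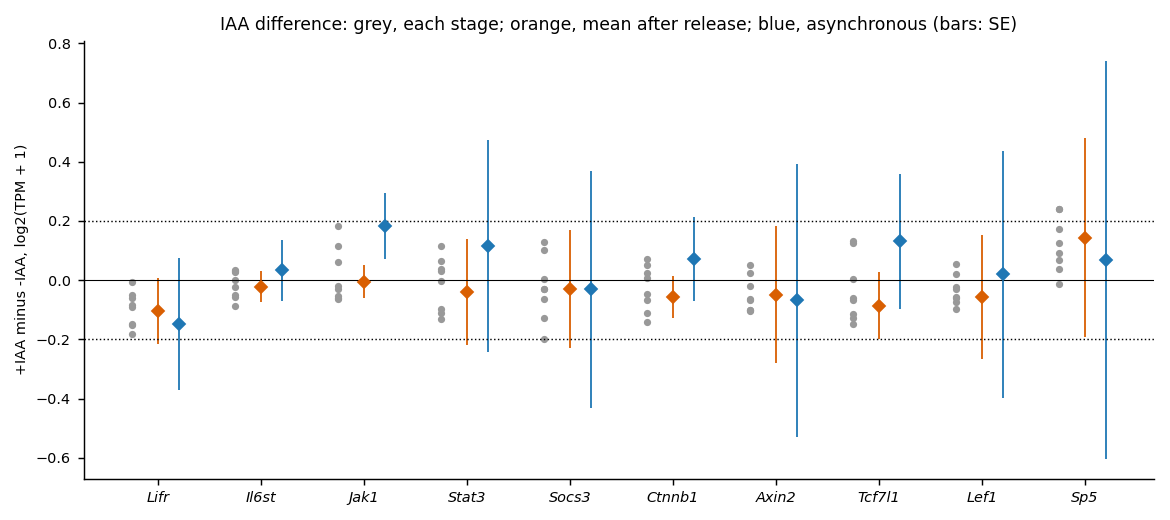
Difference between +IAA and −IAA CTCF-AID cells on the log2(TPM + 1) scale for each gene at each of 8 stages (grey points), as the mean over the stages after release (orange) and in asynchronous cells (blue), with SE bars from limma without the replicate block. Dotted lines mark differences of 0.2 in size. The mean after release lies between −0.10 (Lifr) and 0.14 (Sp5).

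The wider pathways were described with 131 other genes in 10 lists, of which 84 were listed in CCNA-GFP and 96 in CTCF-AID. Of these, 9 in CCNA-GFP and 13 in CTCF-AID, as 12.3% and 11.4% of all genes in these tables, had no asynchronous mean above 0.5 TPM and are listed only through stages after release, so a rise was favoured in advance in them and in the counts that hold them. For comparison with the counts at 60 min, the shares of all genes called higher were those given above. Medians of the lists and changes of single genes are from CCNA-GFP unless another series is named. Other JAK-STAT inhibitors were higher at 60 min in 13 of 13 in CCNA-GFP, 12 of 13 in −IAA and 11 of 13 in +IAA, with a median of 0.95 against 0.79 for all genes in CCNA-GFP. They were led by Pias3 (1.50 ± 0.12), which holds Stat3 off DNA, by Socs1 (1.37 ± 0.13), a relative of Socs3, and by Pias1 (1.35 ± 0.12). In CCNA-GFP 3 of the 13, Socs1 among them, are listed only through stages after release. STAT3 target genes of ES cells were higher in 8 of 9 in CCNA-GFP, 8 of 9 in −IAA and 7 of 9 in +IAA, with a median of 1.72, led by Myc (2.11 ± 0.18), the kinase gene Pim3 (2.08 ± 0.19) and the naive pluripotency factor Klf4 (1.92 ± 0.17). Other JAK-STAT kinases, adaptors and factors were higher in 7 of 8 in CCNA-GFP, 9 of 10 in −IAA and 7 of 10 in +IAA (median 0.54), with Grb2 at 1.09 ± 0.13 and Sos1 at 0.65 ± 0.10. Other LIF-family ligands and receptors were higher in 3 of 4 in CCNA-GFP, 7 of 7 in −IAA and 6 of 7 in +IAA (median 0.48), with Ctf1 at 0.75 ± 0.10, Il11ra1 at 0.66 ± 0.07 and Cntfr at 0.29 ± 0.10. In CTCF-AID 4 of these 7 genes are listed only through stages after release, against 11.4% of all genes, so the −IAA and +IAA counts were largely favoured in advance. Il11ra1, at a mean of 0.191 TPM in asynchronous and 0.885 TPM in 60 min CCNA-GFP cells, is likewise listed only through stages after release, and Cntfr did not pass in +IAA (0.25, adjusted p = 0.0852).

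On the Wnt side the destruction complex and its regulators were higher at 60 min in 13 of 14 in CCNA-GFP, 13 of 14 in −IAA and 12 of 14 in +IAA, with a median of 0.99 in CCNA-GFP. Dvl2, the adaptor that recruits Axin to the receptor, rose by 2.73 ± 0.15, the kinase Gsk3a by 1.44 ± 0.14 and the kinase Csnk1a1 by 1.20 ± 0.14 in CCNA-GFP. Csnk1a1 was at 0.71 in −IAA and 0.75 in +IAA. Wnt receptors and their regulators were higher in 6 of 10 in CCNA-GFP, 7 of 11 in −IAA and 6 of 11 in +IAA (median 0.40), and the receptor Fzd5 rose by 2.68 ± 0.28, the secreted inhibitor Sfrp1 by 0.93 ± 0.09 and Fzd4 by 0.75 ± 0.08. Fzd4, at a mean of 0.191 TPM in asynchronous and 0.843 TPM in 60 min CCNA-GFP cells, is listed only through stages after release. Other TCF factors and co-factors were higher in 10 of 11 in CCNA-GFP, 9 of 11 in −IAA and 8 of 11 in +IAA (median 0.69), with the co-activator Pygo2 at 1.93 ± 0.14 and the co-repressors Tle3 and Tle1 at 1.63 ± 0.13 and 1.27 ± 0.12. Wnt ligands and their export genes were higher in 5 of 6 in CCNA-GFP, 7 of 8 in −IAA and 6 of 8 in +IAA (median 0.32), with Wnt6 at 0.43 ± 0.09, Wnt8a at 0.42 ± 0.14 and Porcn at 0.34 ± 0.11 in CCNA-GFP. In CTCF-AID 3 of these 8 genes are listed only through stages after release (11.4% of all genes), which favoured a rise in them in advance. Porcn was −0.13 in −IAA and −0.18 in +IAA, and it passed in neither (adjusted p = 0.338 and 0.195), nor did Wnt8a in +IAA (0.35, adjusted p = 0.171). Further Wnt targets were higher in 2 of 4 in CCNA-GFP, 6 of 8 in −IAA and 6 of 8 in +IAA (median 0.27), with Ccnd1 at 1.61 ± 0.14, Znrf3 at 0.46 ± 0.12 and Notum, which was lower than in mitosis, at −0.40 ± 0.15. Of the 8 targets in CTCF-AID 3 are listed only through stages after release, so the −IAA and +IAA counts were partly favoured in advance. The Notum value in −IAA was −0.33 and did not pass (adjusted p = 0.0697). Genes that Tcf7l1 represses were higher in 7 of 7 in CCNA-GFP, 6 of 7 in −IAA and 5 of 7 in +IAA (median 1.14), with Tbx3 at 1.52 ± 0.13, Klf2 at 1.45 ± 0.16 and Nanog at 1.22 ± 0.16 in CCNA-GFP. Nanog was at 0.61 in −IAA and 0.67 in +IAA, near the median of 0.63 for all genes in both. In no list was a gene called between +IAA and −IAA in asynchronous cells or in the mean after release.

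The time of the rise was set beside gene length. Spans in GENCODE vM21 were 2.81 kb for Sp5 (chr2:70474923-70477729), 3.97 for Socs3 (chr11:117966079-117970047), 30.4 for Axin2 (chr11:108920349-108950783), 31.3 for Ctnnb1 (chr9:120929216-120960507), 46.0 for Il6st (chr13:112464070-112510086), 54.4 for Stat3 (chr11:100885098-100939540), 107 for Lifr (chr15:7090614-7197489) and 114 for Lef1 (chr3:131110471-131224356). Across the 10 genes Spearman's rho of span with the change at 40 min was −0.70 in CCNA-GFP, and across 9900 genes with a span it was −0.54. At 60 min these were −0.50 and −0.37, at 90 min 0.15 and −0.25, and at 120 min 0.41 and −0.23. Genes are not independent replicates, and these are descriptions. Jak1 was called higher at 40 min in all 3 series despite its 113 kb, while Lifr, Lef1 and Tcf7l1, of similar or greater span, were not called at that time in any. Introns fill 17.9% of the Socs3 and 25.2% of the Sp5 gene, so in these genes the unspliced and spliced isoforms share most of their sequence.

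By likeness over the 19 CCNA-GFP libraries, measured as Pearson's r of log2(TPM + 1), Jak1 was closest to Slc12a2 (0.99) and Megf9 (0.99), with 0.90 and 0.97 over the 36 CTCF-AID libraries. Il6st was closest to BC065397 (0.99) and Mtdh (0.99), Ctnnb1 to Rab7 (0.99) and Nop2 (0.98), Lifr to Dnajc21 (0.97) and Ankrd33b (0.97), and Tcf7l1 to Pip5k1b (0.97) and Tead1 (0.97). Axin2 was closest to Cgn (0.96) and Timp3 (0.96), Lef1 to Zfp608 (0.97) and Esrp1 (0.96), and Sp5 to Cldn7 (0.95) and Has2 (0.94). Stat3 was closest to Sh3bp1 (0.89) and Jak3 (0.89) and Socs3 to Mmp11 (0.85) and Eras (0.84), but over the 36 CTCF-AID libraries these 4 correlations were 0.28, 0.47, 0.43 and 0.42. There Lef1 with Esrp1 was at 0.34 and Axin2 with Cgn at 0.52, and the other pairs listed in that table were at 0.74 to 0.97. Among the members, Lef1 and Sp5 correlated at 0.90 and 0.82, Axin2 and Sp5 at 0.77 and 0.85, and Jak1 and Axin2 at 0.86 and 0.61 in CCNA-GFP and CTCF-AID. All libraries of a table share their stages and replicates, and the median r of Jak1 with all genes was already 0.77.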

How the data were processed

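The data are pre-mRNA levels from ribo-depleted, stranded, paired-end RNA-seq of 55 libraries. Per the paper's methods, the authors aligned reads to mm10 with STAR, used RSEM and GENCODE vM12, extended by an unspliced isoform per gene, for quantification, and deposited the TPM of that isoform, keeping RefSeq genes whose mean passed 0.5 TPM in asynchronous cells or in 2 or more samples after release. A member can thus be listed because of the stage at which it is high. The tables hold no counts, so depth and counting error are unknown, and the count test of the study's methods could not be run on them. Each library also carries a factor that the methods do not name (values within 0.02 of a whole step for 100% of low values in every library). It was read from the smallest values, and its removal is an alternative chosen after the data were seen.

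Columns were matched to samples by line, arm, stage and replicate number. In the headers of the asynchronous CTCF-AID columns the stage is garbled, and it was taken from the matching names in a supplementary table of the study. No column was left without a sample. Stages were compared within each table by limma 3.58.1 (R 4.3.3) on log2(TPM + 1), with a mean per stage and arm, the replicate number as a block, a trended prior, and a call at a Benjamini-Hochberg adjusted p under 0.05 over all genes. The +IAA and −IAA arms were compared without the block at an adjusted p under 0.1 and a log2 difference over 0.2, the limits of the study's methods, and the interaction at an adjusted p under 0.1. The methods describe a replicate as 1 experiment from which the stages were taken. Deviations of same-numbered libraries from their stage means correlated at 0.20 to 0.80 in all 20 pairs of CCNA-GFP groups and at 0.22 to 0.81 in all 88 pairs of CTCF-AID groups, so the numbers were treated as pairing. With the block, the p-values between stages rest on the spread left after stage and replicate number, pooled over the stages of a table. Those between arms, without the block, also hold the spread between experiments. Nothing in the labels says whether the experiments came from separate thaws of the cells.

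The members, the pathway and marker lists and the motifs were chosen with earlier results of these data known. Named were the 10 members, Ctcf, per pathway list the 3 called genes with the largest change at 60 min in CCNA-GFP, list genes called between arms, and per member the 2 genes of highest Pearson correlation over the CCNA-GFP libraries. Of the genes named by this rule, 1 is not reported here. T and Zfp42, from the marker lists, were named after their values were seen. Mixl1 and Mesp1 belong to the mesoderm list, whose members are Mixl1, Mesp1, T, Eomes and Tbx6. Coordinates and spans came from GENCODE vM21 on the same mm10 assembly. Data were simulated as independent values around each gene's mean over all libraries with its residual spread, without stage or replicate differences. With 200 genes changed by 1 or 0.5 on the log2 scale, the fit recovered 98.5% and 60.5% at 60 min in CCNA-GFP, 99% and 80% in −IAA, and 93.5% and 38% between arms at 60 min. False calls were 3.90% and 6.20% of the calls in CCNA-GFP, 7.04% and 3.61% in −IAA, and 8.78% and 9.52% between arms. In the real data most genes changed at 60 min and most differed between replicate numbers, so these rates need not hold there. Alternatives were a pseudocount of 0.1, a mean of at least 1 TPM, the block removed or added, equal library totals, the library factor removed, no trend, each replicate left out, and for the arms an adjusted p under 0.05 with no limit on size. Python 3.11.15 with pandas 2.3.3, numpy 2.4.6, scipy 1.17.1 and matplotlib 3.10.9 was used for the descriptions and plots.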

Additional observations from a re-analysis of the deposited data

Results flagged for a closer look

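In 8 comparisons every pair of same-numbered libraries moved one way in one series and the opposite way in another, with 2 pairs in each series, except that 1 Stat3 pair did not move beyond rounding. None of these differences was tested. The values are fitted log2 changes, and since the fit also uses replicate 3, a fitted value can have another sign than the pairs. At 20 min against mitosis Stat3 was 0.1332 in CCNA-GFP, where replicate 1 went up and replicate 2 was 1.63 TPM at both times, and 0.0704 in +IAA, where both went down. Ctnnb1 at 20 min was 0.1523 in CCNA-GFP and 0.1749 in −IAA against −0.0167 in +IAA. Axin2 at 20 min was 0.0386 and 0.0388 against −0.0048 in the same order. At 120 min Axin2 was 0.3935 above mitosis in CCNA-GFP, and −0.1415 and −0.098 from it in −IAA and +IAA. Tcf7l1 at 60 min against asynchronous cells was 0.0829 in −IAA and −0.1969 in +IAA. For the comparisons at 20 min limma called none of these genes in any series.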

How the results depend on the processing

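Of 714 single-gene values recomputed under the alternatives, 584 kept their direction and their side of the threshold, 81 lost their call, 13 gained one and 36 changed sign, and of 343 counts of called members 289 stayed within 1.5 times the value reported. The counts of 0 between +IAA and −IAA held under every alternative, the replicate block included. The cause of the changes below was not tested. Shares of all genes under these alternatives are not given, so the counts below cannot be set against the shares of the main fit.

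Without the replicate block the numbers above mitosis were 1, 5 and 2 at 40 min, 120 min and in asynchronous cells in CCNA-GFP, 1, 3, 3, 0 and 0 at 40, 50, 60 and 120 min and in asynchronous cells in −IAA, and 1, 3, 3, 1 and 1 in +IAA. For 60 min above asynchronous cells it was 3 in each series, and for the fall from 60 to 120 min 3 in −IAA and 2 in +IAA. Tcf7l1 at 60 min in +IAA was then −0.029. The block moved no other count of calls by over 1.5 times.

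With equal library totals the numbers above mitosis were 1, 3, 2, 1 and 3 at 40, 60, 90 and 120 min and in asynchronous cells in CCNA-GFP, 1, 1, 2, 1 and 0 at 40, 50, 60, 90 and 120 min in −IAA, and 1 at each of 50, 60, 90 and 120 min in +IAA. For 60 min above asynchronous cells it was 3 in each series, and for the fall to 120 min 2 in −IAA and 3 in +IAA. At 60 min the values that turned were Stat3 −0.27, Ctnnb1 −0.27, Lef1 −0.028 and Tcf7l1 −0.73 in CCNA-GFP, Il6st −0.089, Stat3 −0.27, Ctnnb1 −0.17 and Tcf7l1 −0.46 in −IAA, and Il6st −0.068, Stat3 −0.42, Ctnnb1 −0.30, Lef1 −0.11 and Tcf7l1 −0.74 in +IAA. From 60 to 120 min in CCNA-GFP Lifr was 0.020 and Ctnnb1 0.00657, and the mean differences between arms were 0.00408 for Il6st, 0.00216 for Socs3 and 0.012 for Jak1.

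Without the library factor the numbers above mitosis were 7 at 40 min in CCNA-GFP, 5 in asynchronous −IAA cells and 1 at 120 min in +IAA, and 3 members were above asynchronous cells at 60 min in +IAA. Ctnnb1 in asynchronous against mitotic CCNA-GFP cells was 0.16, and the mean differences between arms were 0.017 for Il6st, 0.00394 for Stat3, 0.013 for Socs3 and 0.024 for Jak1. With only genes averaging 1 TPM or more, 1 member fell from 60 to 120 min and 3 were above asynchronous cells at 60 min in CCNA-GFP.

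Leaving out each replicate in turn gave 3 to 5 members that fell from 60 to 120 min in CCNA-GFP (5 without replicate 2). In −IAA 2 to 4 were above mitosis at 40 min and 2 to 6 at 90 min (2 without replicate 3 at both), 1 to 3 at 120 min (1 without replicate 2) and 0 to 3 in asynchronous cells (0 without replicate 3). In +IAA it was 5 to 9 at 60 min (5 without replicate 2), 2 to 5 at 90 min (2 without replicate 3), 0 to 6 at 120 min (6, 0 and 1 without replicates 1, 2 and 3) and 2 to 3 in asynchronous cells (2 without replicate 3). From 60 to 120 min in CCNA-GFP the values ran from −0.38 to 0.15 for Lifr, from −0.85 to 0.47 for Stat3 and from −0.52 to 0.17 for Ctnnb1 (upper ends without replicate 1), and from −0.12 (without replicate 2) to 0.50 for Il6st. In −IAA Sp5 ran from −0.038 (without replicate 2) to 1.50 at 60 min and from −1.04 to 0.11 (without replicate 2) from 60 to 120 min. In +IAA Tcf7l1 at 60 min ran from −0.026 (without replicate 3) to 0.27. Ctnnb1 in asynchronous CCNA-GFP cells ran from −0.19 to 0.016 (without replicate 1). Between arms the mean difference ran from −0.051 to 0.00360 for Il6st, from −0.064 to 0.00233 for Stat3 and from −0.024 to 0.019 for Jak1. Where a stage keeps 1 library, the fit lets it vary like the other stages.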
